A study of Mus musculus with 9 samples.

Results

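The mitochondrial ribosomal protein genes were taken as all genes whose symbol in the platform annotation starts with Mrpl or Mrps followed by a number. There were 74 of them, 47 with an Mrpl symbol (named for the large subunit) and 27 with an Mrps symbol (named for the small subunit), among 12393 named genes on the array. The symbols do not always match the place of the protein, since Mrps18a and Mrps30 are known to sit in the large subunit and Mrps36 belongs to another complex. Each gene was read from 1 probe set, the one with the highest mean log2(signal + 16) over all 9 arrays among those that name this gene alone. All 74 genes lay in the brighter 50% of probe sets, which was tested, so no member was lost to the filter on low signal.

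The study measured RNA of lumbar motor neurons, taken by laser microdissection from spinal cord sections of mice with spinal muscular atrophy (SMA), a disease of motor neurons caused in humans by loss of SMN1. Of the 9 mice, with 1 array each, 3 were SMA mice that received a transplant labelled NSC, 3 were SMA mice given vehicle, and 3 were wild type mice given vehicle. Surgery was done on postnatal day 1 and tissue was taken at 13 days of age, with about 100 cells in a cap and no pooling of animals on an array. The labels used here give neither the SMA alleles, the strain nor the sex of the mice, nor the source of the transplanted cells.

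The mitochondrial ribosome sits in the matrix and makes the few proteins encoded by mitochondrial DNA, all of them subunits of the oxidative phosphorylation complexes. Its ribosomal RNAs come from mitochondrial DNA, while all its proteins are encoded in the nucleus, made in the cytosol and imported. Many descend from bacterial ribosomal proteins and others were added during the evolution of mitochondria. Motor neurons have long axons and a high demand for ATP, and inherited defects of several of these proteins in humans cause combined deficiencies of the respiratory chain.

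Promoter sequences of 65 of the 74 genes were matched by gene in RefSeq's table for build GRCm38.p6, each running from 250 bases before to 50 bases after the start of transcription. Of these, 4 are shown because the genes had lower signals in SMA than in wild type or start close to another member. Capitals mark 1 motif in each, and every sequence is written along the strand of its gene. Mrpl12 lies on the plus strand (chr11:120484387-120484686) and has a motif of nuclear respiratory factor 1 (NRF1), an activator of nuclear genes for mitochondria. Mrpl42 lies on the minus strand (chr10:95501900-95502199) and has a motif of the zinc finger factor YY1. Mrps12 lies on the minus strand (chr7:28741772-28742071) and has a motif of the ETS family, to which GABP, also called nuclear respiratory factor 2, belongs. Mrps11 lies on the plus strand (chr7:78782881-78783180), and its YY1 motif reads on the opposite strand, along which the large subunit gene Mrpl46 starts 42 bases away.
Mrpl12: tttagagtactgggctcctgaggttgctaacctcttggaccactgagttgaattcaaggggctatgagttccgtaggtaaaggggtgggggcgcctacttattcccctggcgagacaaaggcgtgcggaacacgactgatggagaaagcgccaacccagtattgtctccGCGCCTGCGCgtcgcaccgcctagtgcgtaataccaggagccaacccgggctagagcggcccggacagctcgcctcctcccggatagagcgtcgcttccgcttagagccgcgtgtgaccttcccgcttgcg
Mrpl42: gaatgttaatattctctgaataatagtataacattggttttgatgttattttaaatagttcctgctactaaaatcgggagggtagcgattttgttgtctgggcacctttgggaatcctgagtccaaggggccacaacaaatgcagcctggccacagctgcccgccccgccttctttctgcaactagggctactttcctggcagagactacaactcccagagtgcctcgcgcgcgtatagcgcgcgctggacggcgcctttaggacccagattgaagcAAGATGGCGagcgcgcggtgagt
Mrps12: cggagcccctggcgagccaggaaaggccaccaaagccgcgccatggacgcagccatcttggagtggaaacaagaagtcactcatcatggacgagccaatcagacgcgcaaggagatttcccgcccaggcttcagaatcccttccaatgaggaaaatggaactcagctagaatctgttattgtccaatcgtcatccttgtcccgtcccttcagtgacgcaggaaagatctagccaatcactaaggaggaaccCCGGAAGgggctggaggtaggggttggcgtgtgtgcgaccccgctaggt
Mrps11: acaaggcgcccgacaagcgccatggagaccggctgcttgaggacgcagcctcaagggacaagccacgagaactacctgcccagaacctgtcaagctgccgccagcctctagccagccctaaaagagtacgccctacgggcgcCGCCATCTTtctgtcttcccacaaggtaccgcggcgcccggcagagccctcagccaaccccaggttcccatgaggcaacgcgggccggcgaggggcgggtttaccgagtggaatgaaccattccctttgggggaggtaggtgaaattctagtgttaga

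Motifs were searched on both strands, and a palindromic overlap was counted once. The NRF1 motif, searched as GCGCA, any base, then GCGC, stood in 12 of the 65 members' promoters (18.5%), against 7.17% of 17492 protein-coding genes in the table. The ETS motif, CCGGAAG, stood in 24 (36.9%), against 12.9%. The YY1 motif, AANATGGCG, stood in 10 (15.4%), against 3.64%. The CCAAT box, which is common to many promoters, stood in 25 (38.5%), against 42.3%. Of the 65 members, 26 (40%) had none of the first 3 motifs, against 79.1% of protein-coding genes, and 7 (10.8%) had at least 2 of them, against 2.75%. The members are all bright genes, and the motif shares among bright genes alone were not computed. A match of letters is a description and does not show that a factor binds there.

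The deposited signals are linear intensities in arbitrary units, and differences are given on the log2(signal + 16) scale, which understates the change of dim genes. The mean after trimming was 100 on every array, and median signals lay between 31.4 and 35.8. Among the markers of motor neurons, only Isl2 and Mmp9 of 9 genes with a probe set passed the filter on low signal, and Chat has no probe set of its own. The summed signal of these markers was 163 to 333.1 on transplanted SMA arrays, 143.4 to 228.9 on SMA arrays and 126.8 to 211.2 on wild type arrays. Oligodendrocyte markers summed to 25560.4 to 33711.9 on transplanted SMA arrays, 17981.1 to 31432.8 on SMA arrays and 23390.6 to 27014.2 on wild type arrays, so RNA of other cells was present in every group. In such bulk samples, fewer cells of a type and less RNA per cell cannot be told apart.

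Several arrays stood apart from the rest. The 8 skeletal muscle markers all have a probe set. Their summed signal was 2461.3 for SMA 1 and 3055 for SMA 2, while the 7 remaining arrays gave 61.7 to 143.1. Xist, transcribed from the inactive X chromosome, had signals of 733, 739.6 and 366.1 on transplanted SMA arrays and 600.7, 879.5 and 47.6 on SMA arrays, against 32.9, 23.5 and 31.7 on wild type arrays. Probe sets for 18S ribosomal RNA averaged 2358.3 for SMA 3 and 2267.4 for wild type 3, while the remaining arrays gave 605.4 to 1540.8. Ratios of 3' to 5' signal for Gapdh were 3.2 to 3.82 on transplanted SMA arrays, 3.3 to 4.26 on SMA arrays and 3.19 to 3.63 on wild type arrays. For actin they were 2.48 to 3.09, 2.97 to 4.32 and 2.7 to 3.66, with SMA 3 the highest. The part of these ratios in the members' values was not tested.

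In the samples cut as motor neurons, which also held RNA of other cells, more of the mitochondrial ribosomal protein genes had negative than positive differences in SMA against wild type. Of the 74 differences, 51 were negative and 23 positive, a share of 68.9% negative against 49% of all probe sets (49.3% of all 7254 named genes tested). Their median was -0.07 (quartiles -0.26 and 0.02), against 0.00 for all named genes (quartiles -0.15 and 0.15). The single differences ran from -0.53 for Mrps25 to 0.46 for Mrpl20. No member passed the threshold of an adjusted p of 0.05 in limma, where 0.0442% of all probe sets did, and the smallest adjusted p among the members was 0.686. At an unadjusted p under 0.05, 5 members were lower and 0 higher (6.76% of the members), against 6.04% of all probe sets, with 3.32% lower and 2.71% higher. This count of 5 was 2 without SMA 2, without wild type 1 or without wild type 2, 3 without transplanted SMA 2, and 11 with array weights.

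The groups of 3 arrays did not overlap for 12 members (16.2%), against 11.4% of all probe sets. Of these, 11 were lower in SMA (14.9% of the members, against 6.06% of all probe sets) and 1 was higher (1.35%, against 5.31%). The 11 were Mrpl3, Mrpl12, Mrpl13, Mrpl15, Mrpl17, Mrpl24, Mrpl42, Mrpl49, Mrps12, Mrps15 and Mrps25, and the higher one was Mrpl44, named here after their values were seen.

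The shift was seen on single arrays. The median of the members, each set against its own mean over 9 arrays, was -0.03, -0.02 and 0.03 on the transplanted SMA arrays, -0.02, -0.09 and -0.08 on the SMA arrays, and 0.10, 0.06 and 0.05 on the wild type arrays. The 3 wild type arrays were above the 6 arrays of both SMA groups, and these overlapped each other. This did not hold for the Mrps genes alone, where transplanted SMA 3 (0.048) lay above wild type 2 (0.030) and wild type 3 (0.035). Nor did it hold for the genes with a bacterial counterpart, with transplanted SMA 3 at 0.035 and wild type 3 at 0.031. Set against the wild type mean instead, the members' medians were apart by little, with wild type 3 at -0.023 and transplanted SMA 3 at -0.029. On that measure the Mrpl genes overlapped too, with transplanted SMA 3 at -0.029 and wild type 3 at -0.033. For the Mrps genes, SMA 1 (0.025) then lay above wild type 2 (-0.030) and wild type 3 (0.006). The same held for the genes with a bacterial counterpart (-0.002, against -0.025 and -0.028). The number of members above their own mean was 34, 33 and 44 of 74 on the transplanted SMA arrays, 34, 23 and 27 on the SMA arrays, and 53, 45 and 43 on the wild type arrays. The same medians over all named genes stayed between -0.04 and 0.05, with SMA 1 at the top.

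**Figure D1:**
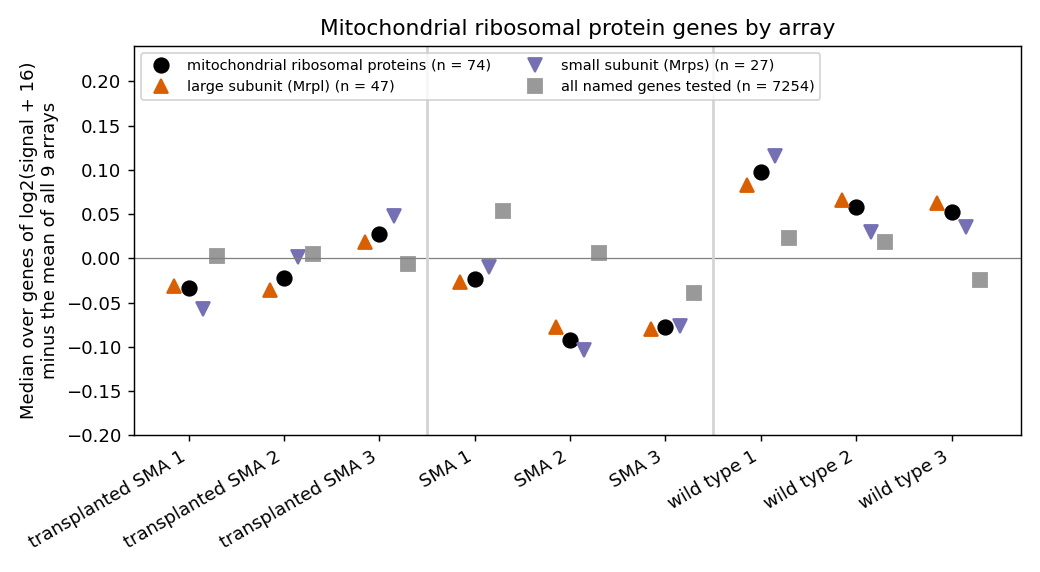
Median over genes of log2(signal + 16) minus each gene's mean over the 9 arrays, by array, for the 74 members, their Mrpl and Mrps genes, and all 7254 named genes tested. The members' medians are 0.05 to 0.10 on wild type arrays and -0.09 to -0.02 on SMA arrays.

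Pairs of members showed little correlation. Over the 9 arrays, the median correlation between 2 members was 0.052 over 2701 pairs, of which 55% were positive, and after each group's mean was removed it was -0.001. These are descriptions, since the members share arrays and scaling.

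Negative differences were in the majority among both the Mrpl and the Mrps genes. The 47 Mrpl genes had a median SMA minus wild type difference of -0.09, with 33 negative, and the 27 Mrps genes had -0.07, with 18 negative. These classes go by symbol, so Mrps18a, Mrps30 and Mrps36 are counted among the Mrps genes. The 44 genes listed here as having a bacterial counterpart had -0.08, with 31 negative, and the 30 not so listed had -0.07, with 20 negative. That list was drawn up by hand. The difference between these classes was not tested.

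Mrps25, a small subunit protein without a bacterial counterpart, had the smallest p among members in SMA against wild type. Its signals were 90.5, 87 and 102.4 on transplanted SMA arrays, 67.6, 92.3 and 94.2 on SMA arrays, and 135.6, 107.2 and 145.6 on wild type arrays. Every array of both SMA groups lay below every wild type array. It averaged 84.7 ± 14.8 in SMA and 129 ± 19.9 in wild type (SD, n = 3 each), a log2 difference of -0.53 with a standard error of 0.18 and an adjusted p of 0.686 in limma. Its dimmer probe sets, not tested, gave -0.37 and 0.12.

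Mrpl42, a large subunit protein without a bacterial counterpart, had signals of 346.2, 279.8 and 282.7 on SMA arrays, against 522.5, 371.8 and 396.9 on wild type arrays, and 329.1, 328.6 and 355.8 after transplantation. The highest value was on wild type 1, and SMA lay below wild type on every array. The log2 difference was -0.48 with a standard error of 0.18 (adjusted p = 0.732), and a second, dimmer probe set gave 0.39.

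Mrps12 is the counterpart of the bacterial protein at the decoding centre, where mutations give resistance to streptomycin in bacteria. Its signals were 139.5, 149.5 and 138.4 on transplanted SMA arrays, 101.3, 113 and 120.1 on SMA arrays, and 159.7, 154.4 and 134.9 on wild type arrays. The SMA arrays lay below all arrays of both other groups, which overlapped each other. The log2 difference was -0.38 with a standard error of 0.15 in SMA against wild type (adjusted p = 0.789), and 0.32 in transplanted SMA against SMA (adjusted p = 0.933).

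Mrpl12 forms the stalk that recruits translation factors, and in human cells it also binds the mitochondrial RNA polymerase. Its signals were 167.6, 164.4 and 102.7 on transplanted SMA arrays, 96.4, 125.4 and 127.9 on SMA arrays, and 175.7, 152.1 and 169.4 on wild type arrays. SMA and wild type did not overlap, and transplanted SMA 3 lay among the SMA values. The SMA minus wild type difference was -0.46 with a standard error of 0.20 (adjusted p = 0.822).

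The proteins of the stalk base differed in sign from each other. Mrpl10, which anchors the stalk, had signals of 158.1, 138.5 and 151.7 on transplanted SMA arrays, 137, 114.6 and 103 on SMA arrays, and 134.3, 138.7 and 132.8 on wild type arrays. Its difference was -0.18 in SMA against wild type and 0.31 in transplanted SMA against SMA, where the groups did not overlap (adjusted p = 0.933). Mrpl11, beside it in the ribosome, had a difference of 0.27 in SMA against wild type, and 2 other tested probe sets gave 0.32 and -0.33.

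Mrps15, a small subunit protein with a bacterial counterpart, was the fifth member with an unadjusted p under 0.05. It had signals of 135.6, 114.8 and 108.7 on SMA arrays, against 148.8, 196.3 and 152.5 on wild type arrays, a difference of -0.42 with a standard error of 0.19 (adjusted p = 0.824). Its second tested probe set gave 0.07.

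Mrpl20, an early assembly protein of the large subunit in bacteria, was at the other end of the range. It had signals of 139.5, 157.2 and 192 on SMA arrays, against 142.3, 87.5 and 115.8 on wild type arrays. Wild type 1 overlapped the SMA arrays, and the difference was 0.46 with a standard error of 0.22 (adjusted p = 0.842). Mrpl52, a large subunit protein without a bacterial counterpart, had a difference of 0.33, with signals from 288.1 to 368.8 on SMA arrays and 213.9 to 390.7 on wild type arrays.

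In transplanted SMA against vehicle treated SMA, the members were spread on both sides of 0. Of the 74 transplanted SMA minus SMA differences, 43 were positive and 31 negative (50.3% and 49.7% of all probe sets), with a median of 0.06, against 0.00 for all named genes. No member passed the threshold in limma, where 0% of all probe sets did, and the smallest adjusted p was 0.933. At an unadjusted p under 0.05, 1 was higher and 2 were lower, 4.05% of the members against 4.77% of all probe sets (2.32% higher, 2.46% lower). The groups did not overlap for 7 members (9.46%), against 9.11% of all probe sets, with 6 higher and 1 lower (4.43% and 4.68% of all probe sets). The higher were Mrpl10, Mrpl15, Mrpl17, Mrpl28, Mrpl54 and Mrps12, and the lower was Mrps14. Leaving out SMA 2 brought the median to -0.0004, with 37 of 74 members negative.

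Mrpl28, a large subunit protein, had the largest difference of any member. Its signals were 549.2, 399.2 and 514.9 on transplanted SMA arrays, 261.1, 298.3 and 398.5 on SMA arrays, and 280.5, 176.6 and 335.7 on wild type arrays. The lowest transplanted value, 399.2, lay just above the highest SMA value, 398.5. The difference was 0.60 in transplanted SMA against SMA with a standard error of 0.25 (adjusted p = 0.933), and 0.88 against wild type (adjusted p = 0.551). Its 2 other tested probe sets gave 0.11 and -0.09 in transplanted SMA against SMA, so this rests on 1 of 3 probe sets.

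Mrps14, a protein of the small subunit head in which human mutations cause mitochondrial disease, had signals of 338.6, 374.4 and 378.6 on transplanted SMA arrays. They were 571.5, 402.4 and 566.4 on SMA arrays, and 531.8, 496 and 517.1 on wild type arrays. All 3 transplanted SMA arrays lay below the other 6, with differences of -0.46 against SMA (adjusted p = 0.933) and -0.48 against wild type (adjusted p = 0.699). A second tested probe set gave 0.03 and 0.05.

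Mrpl22, which in bacteria lines the tunnel through which the new protein leaves, followed the same order. Its signals were 177.6, 139.8 and 131 on transplanted SMA arrays, 212.9, 247.8 and 166.7 on SMA arrays, and 226, 221.3 and 194.7 on wild type arrays. Transplanted SMA 1 overlapped SMA 3, while transplanted SMA and wild type did not overlap. The differences were -0.44 against SMA (adjusted p = 0.933) and -0.48 against wild type (adjusted p = 0.711), and it has 1 probe set.

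Mrpl15, a large subunit protein with a bacterial counterpart, had signals of 401.2, 267.8 and 284.3 on transplanted SMA arrays, 257.6, 234.1 and 220.9 on SMA arrays, and 308.5, 327.9 and 268 on wild type arrays. SMA lay below both other groups without overlap. The difference was 0.38 in transplanted SMA against SMA (adjusted p = 0.933). Its 4 other tested probe sets gave -0.34, 0.78, 0.12 and -0.05 in that comparison, and they disagreed in sign in SMA against wild type too.

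**Figure D2:**
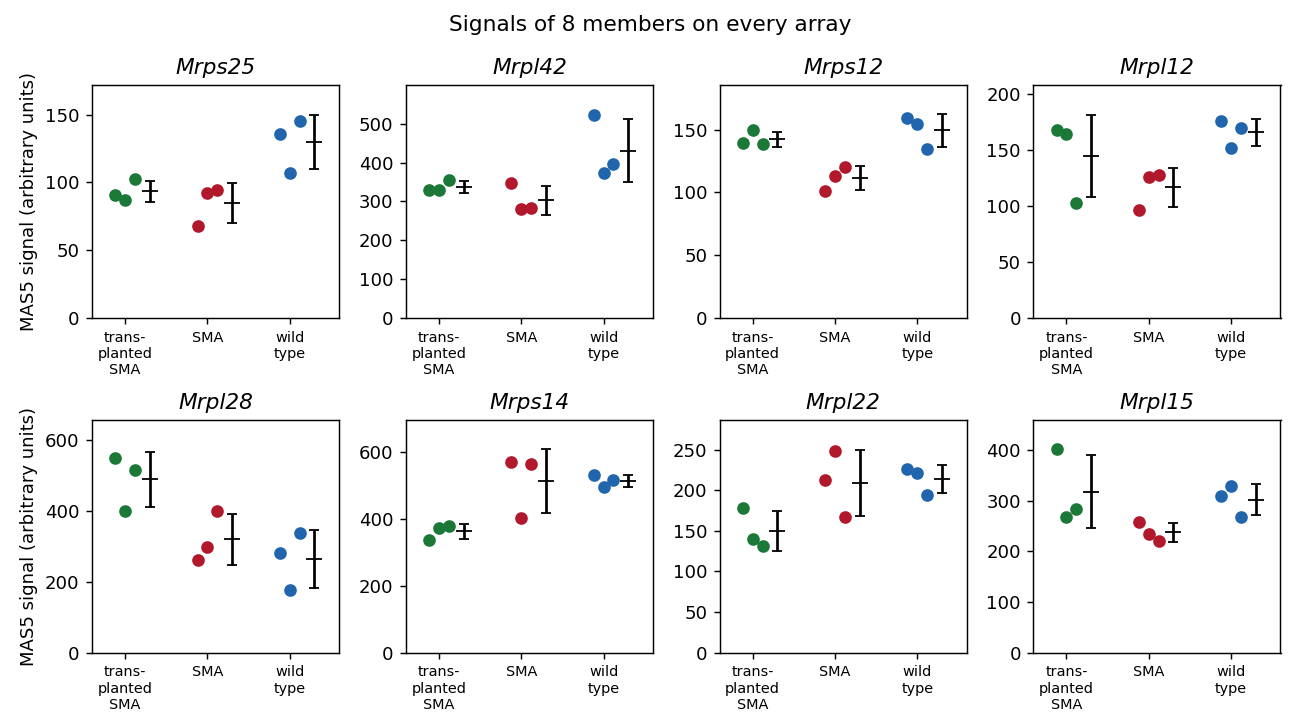
MAS5 signal of 8 members on every array (points), with the group mean and SD beside them (n = 3 each), from 0 on every axis. SMA lies below wild type without overlap for Mrps25, Mrpl42, Mrps12, Mrpl12 and Mrpl15, and transplanted SMA is apart from SMA for Mrps12, Mrpl28, Mrps14 and Mrpl15.

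Against wild type, the samples of transplanted SMA mice had 47 negative and 27 positive differences among the members. The share of 63.5% negative compares with 51.5% of all probe sets (48.5% were positive), and the median was -0.06, against -0.01 for all named genes. This comparison shares arrays with both others, so its direction is not separate support. No member passed the threshold in limma, where 0% of all probe sets did, and the smallest adjusted p was 0.551. At an unadjusted p under 0.05, 1 was higher (Mrpl28) and 3 lower (Mrpl22, Mrps14 and Mrps25), against 6.55% of all probe sets (3.27% higher, 3.28% lower). Groups did not overlap for 12 members (16.2%), against 14.1% of all probe sets, of which 9 were lower and 3 higher (7.04% and 7.11% of all probe sets). The lower were Mrpl1, Mrpl3, Mrpl9, Mrpl16, Mrpl22, Mrpl42, Mrps14, Mrps24 and Mrps25, and the higher were Mrpl14, Mrpl28 and Mrpl44. Without wild type 1 the median was -0.023, and without transplanted SMA 2 it was -0.027.

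**Figure D3:**
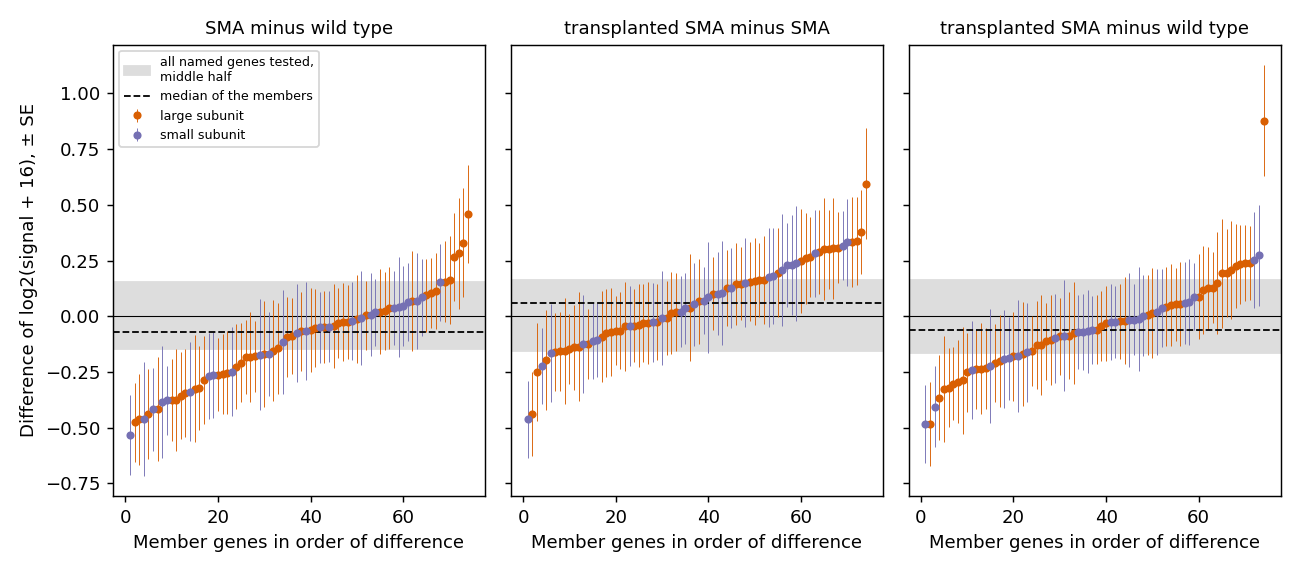
Difference of log2(signal + 16) with its standard error for each of the 74 members, in order of size, in the 3 comparisons. The grey band is the middle 50% of all named genes, and the dashed lines are the members' medians of -0.07, 0.06 and -0.06.

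The members known from human disease or special positions gave values on both sides of 0. Mrpl3, mutated in a human cardiomyopathy, had signals of 286.2, 317.7 and 381.4 on transplanted SMA arrays, 347.9, 358.3 and 305 on SMA arrays, and 396.2, 420.7 and 402.4 on wild type arrays. Wild type lay above every array of both other groups, with differences of -0.26 for SMA (adjusted p = 0.917) and -0.30 for transplanted SMA (adjusted p = 0.793). A second tested probe set gave -0.10 and -0.225, and there both groups overlapped wild type.

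Mrpl44, an RNase III-like protein also mutated in human cardiomyopathy, was the only member higher in SMA without overlap. Its signals were 318.9, 252.4 and 232.5 on transplanted SMA arrays, 239.9, 229.1 and 247 on SMA arrays, and 216.1, 226.5 and 225.4 on wild type arrays. The difference in SMA was 0.09, but its second tested probe set gave -0.30. Mrps16 and Mrps22, both linked to fatal infant disease in humans, had SMA minus wild type differences of 0.01 and 0.04.

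Mrpl45, which in mammals ties the ribosome to the inner membrane near the tunnel exit, had signals of 73.2, 62.5 and 59.8 on transplanted SMA arrays, 72, 62.5 and 39.5 on SMA arrays, and 66.7, 70.6 and 80.9 on wild type arrays. The groups overlapped, with a difference of -0.29 for SMA (adjusted p = 0.942). Mrps5, whose lowering lengthens life in worms, had 0.04 for SMA against wild type. Mrpl41, a large subunit protein without a bacterial counterpart, had 0.10, and its other tested probe set gave 0.05.

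The 3 counterparts of a single bacterial protein, Mrps18a, Mrps18b and Mrps18c, differed in sign, with -0.17, 0.05 and 0.15 in SMA against wild type. Mrps18a is known to sit in the large subunit. Mrps30, likewise found in the large subunit despite its name, had -0.12. Mrps36, now known as a component of the alpha-ketoglutarate dehydrogenase complex, had -0.26 in SMA against wild type and 0.28 in transplanted SMA against SMA.

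Some members were noisy. The spread within groups was highest for Mrps21, Mrps26 and Mrpl28, with standard deviations of 0.35, 0.34 and 0.34 on the log2 scale. Standard errors of a difference ran from 0.15 to 0.26 with a median of 0.19. The 95% interval of the difference excluded a change of 1 or more on the log2 scale for 73 of the 74 members in each comparison, and included 0 for 69, 71 and 70 of them in SMA against wild type, transplanted SMA against SMA and transplanted SMA against wild type.

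For 33 of the genes several probe sets name the gene alone, and 17 genes have several that were tested. Over all 100 tested probe sets of the members, 64 were negative in SMA against wild type, with a median of -0.06. Of the 17 genes, 7 had all tested probe sets on 1 side of 0, 4 negative and 3 positive. The median gap between probe sets of a gene was 0.25 and the widest 0.65, while the members' own differences ran from -0.53 to 0.46.

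**Figure D4:**
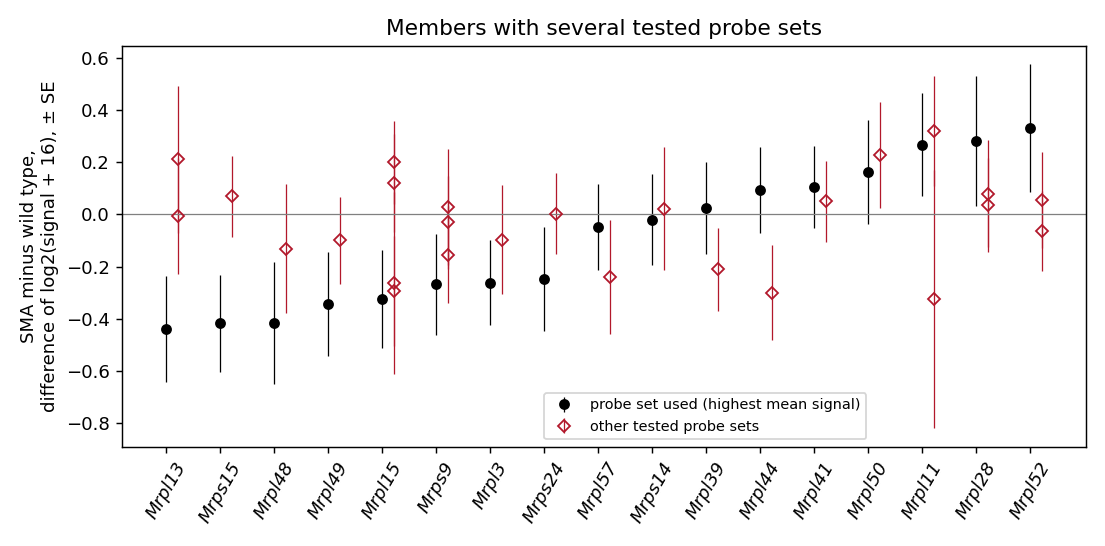
SMA minus wild type difference of log2(signal + 16), with its standard error, for the 17 members with several tested probe sets, the one used in black and the others in red. The other probe sets of Mrpl13, Mrps15, Mrpl15 and Mrpl44 include values on the opposite side of 0.

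Other values also differed between SMA and wild type, not all of them on every array, and their part in the shift was not tested. Of 3 erythroid markers with a probe set, Alas2 and Bpgm were bright and Hba-a1 was near background, and the 3 summed to 1340.4 to 2051 on transplanted SMA arrays and 1362.7 to 1462.4 on SMA arrays, against 2535 to 3367 on wild type arrays. Xist, above, was also higher on each array of both SMA groups than on any wild type array, with SMA 3 the lowest of the 6 at 47.6. With Y-linked Eif2s3y and Kdm5d, both below the filter, added to Xist, the sum was 133.3, 114.2 and 143.5 on wild type arrays. It was 614.1, 880.7 and 197.1 on SMA arrays and 740.6, 743.9 and 479.9 on transplanted SMA arrays. Little was left beside Xist on SMA 1, SMA 2 and transplanted SMA 1 and 2. On the wild type arrays and SMA 3 most of the sum lay beside Xist. Transplanted SMA 3 held both, with a high Xist signal, given above, and signal left beside it. Animals were not pooled on an array, and the reason for this mix was not tested. The labels give no sex, and the part of sex in the shift was not tested. In SMA against wild type, oligodendrocyte markers had negative differences for 5 of 5 genes tested (median -0.37) and microglial markers positive ones for 6 of 6 (median 0.21), none past the threshold in limma. The summed oligodendrocyte signal, given above, overlapped between these groups. It was 21701.7 on SMA 1 and 17981.1 on SMA 2, below every wild type array, but 31432.8 on SMA 3, above every wild type array. The summed microglial signal was 7345.3 to 9430.8 on SMA arrays, against 4887.6 to 9870.9 on wild type arrays. Neuron markers had 4 of 7 differences negative (median -0.27) and astrocyte markers 4 of 6 positive (median 0.19), none past the threshold. Summed neuron signal was 2620.8 on SMA 1 but 1252 on SMA 3, against 1906.5 to 2271.8 on wild type arrays. Summed astrocyte signal was 7482.7 to 12891.5 on SMA arrays, against 7571.3 to 8991.4 on wild type arrays. Without SMA 1 and SMA 2, which carry the muscle markers, the SMA group is 1 array, SMA 3. That array has a high 18S signal and, unlike SMA 1 and SMA 2, Y-linked signal. The members' median in SMA against wild type was then -0.11, with 51 of 74 negative, a value of that array with no spread of its own. Without SMA 3 and wild type 3, which carry the high 18S signal, it was -0.11, with 50 negative. Without SMA 1 alone it was -0.12, and without wild type 3 alone -0.11. Centring each array on its median moved all named genes by -0.06, and the members' counts then became 60 negative and 14 positive in SMA against wild type, with a median of -0.13, where 60% of all named genes were negative and their median was -0.06. The same centring moved all named genes by -0.08 in transplanted SMA against wild type. The members then had 58 negative and 16 positive differences there, where 64.2% of all named genes were negative with a median of -0.09. In transplanted SMA against SMA, oligodendrocyte markers had positive differences for 5 of 5 genes (median 0.45) and microglial markers negative ones for 6 of 6 (median -0.81). Neuron markers had 5 of 7 positive (median 0.19) and astrocyte markers 5 of 6 (median 0.20). None of these passed the threshold in limma. Summed neuron signal ran from 1527.3 on transplanted SMA 3 to 3786 on transplanted SMA 2. The part of all these markers in the members' values was not tested.

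Related gene lists placed the members in context, and no gene of them passed the threshold. The 4 further ribosome subunits tested, Dap3, Ptcd3, Chchd1 and Gadd45gip1, had a median of -0.07 in SMA against wild type. Nuclear-encoded subunits of oxidative phosphorylation, whose partners encoded by mitochondrial DNA are made by this ribosome, had -0.08, with 56 of 76 negative. By array their medians overlapped, with 0.05, -0.09 and 0.07 on wild type arrays and 0.00, -0.14 and 0.06 on SMA arrays. The groups did not overlap, with SMA lower, for 2.63% of them, against 6.06% of all probe sets. Proteins of the cytosolic ribosome, which makes all other proteins, had 0.16, with 37 of 42 positive.

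Of 6 mitochondrial translation factors tested, 5 had negative differences in SMA against wild type, with a median of -0.18, and 6 in transplanted SMA against wild type, with a median of -0.23. The arrays overlapped, since the summed signal of the 8 listed genes with a probe set was 588.8 to 700 on transplanted SMA arrays, 597.5 to 798.2 on SMA arrays and 709 to 789.9 on wild type arrays. Mrrf, which splits the ribosome for a new round, had signals of 90.8, 65.7 and 44.3 on transplanted SMA arrays, 74.9, 83.3 and 51 on SMA arrays, and 98, 106.4 and 97.2 on wild type arrays. Both SMA groups lay below every wild type array, with differences of -0.53 for transplanted SMA (adjusted p = 0.752) and -0.46 for SMA (adjusted p = 0.846).

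Genes for assembly of the ribosome and modification of its RNA had 7 of 12 negative in SMA and 11 of 12 negative in transplanted SMA, each against wild type, with medians of -0.05 and -0.12. Dhx30, an RNA helicase of this pathway, had -0.37 in SMA against wild type. Aminoacyl-tRNA synthetases of the mitochondria had 7 of 11 negative in SMA, with a median of -0.04. Genes of mitochondrial DNA expression had 7 of 14 negative, with a median of 0.00. Proteases and import genes had 11 of 14 negative and a median of -0.06. Among these, Lonp1, a protease of the matrix, had signals of 191.7, 190.7 and 164.1 on transplanted SMA arrays, 70.9, 117.5 and 111.3 on SMA arrays, and 175.5, 89.4 and 95 on wild type arrays. It was higher in transplanted SMA than in SMA by 0.80 without overlap, and the adjusted p was 0.933.

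Many members start close to another gene that is transcribed the other way, which does not show that they share a promoter. In RefSeq's table, 22 of the 65 members (33.8%) had a gene starting within 1000 bases on the opposite strand and facing away, against 8.48% of 17492 protein-coding genes. The share among bright genes alone was not computed here either. For 20 of the 22 the partner is no member, and the other 2 are Mrps11 and Mrpl46, which start 42 bases apart on opposite strands, in the window printed above. Their signals in SMA against wild type gave -0.34 and -0.25.

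Mrps11 had signals of 66.1, 44.5 and 91.7 on SMA arrays, against 83.3, 82.5 and 94.4 on wild type arrays. Mrpl46 had 135.9, 102.2 and 113.3 on SMA arrays, against 142.8, 134.2 and 148.7 on wild type arrays. The groups overlapped for both.

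In 11 pairs both genes were tested, and in SMA against wild type 2 pairs were both negative, 3 both positive and 6 opposite. Mrps12 and Sars2, which charges mitochondrial tRNA with serine, start 147 bases apart and had -0.38 and 0.39. Sars2 had signals of 86.4, 58.2 and 56.3 on transplanted SMA arrays, 84.4, 32.4 and 46 on SMA arrays, and 26.1, 45 and 36.2 on wild type arrays. Mrpl18 and Tcp1, a subunit of the cytosolic chaperonin, had -0.36 and 0.25, and Mrpl49 and Fau, a precursor of a cytosolic ribosomal protein, had -0.34 and 0.25. None of these differences passed the threshold, and these pairs were looked at after the members' values were seen.

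**Figure D5:**
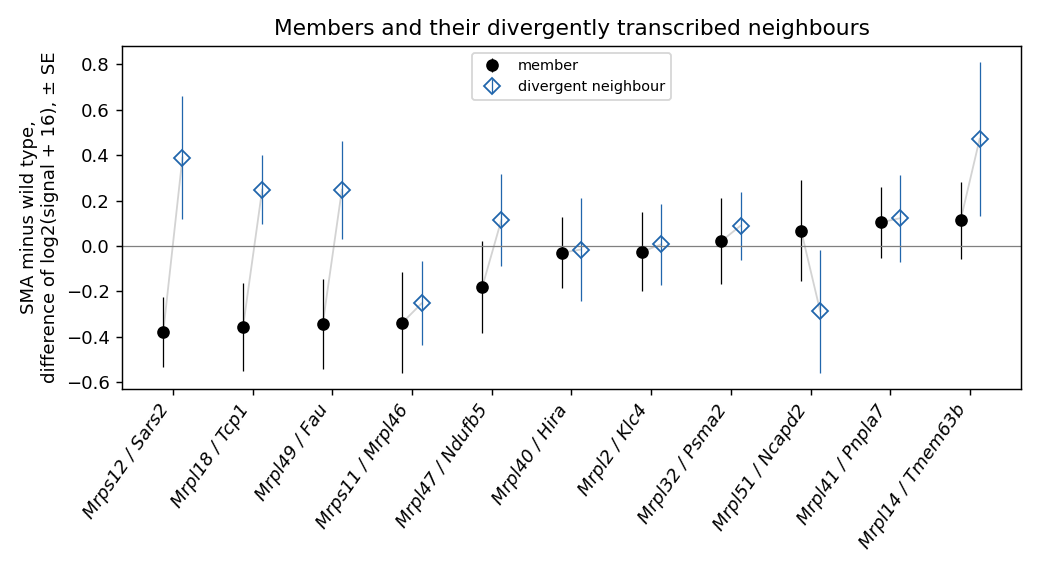
SMA minus wild type difference of log2(signal + 16), with its standard error, for 11 pairs of a member (black) and its divergently transcribed neighbour (blue). The neighbour starts within 1000 bases on the opposite strand. The genes of 6 pairs lie on opposite sides of 0, and Mrps11 and Mrpl46 are both negative.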

How the data were processed

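The authors deposited 1 MAS5 intensity for each probe set, on a linear scale, per the submitters' processing notes. Its trimmed mean was 100 on each array. The sources used here give no MAS5 version, and detection calls were not used here. RNA was amplified through 2 rounds, per the labels' protocols. Of 22690 probe sets, 64 controls were left out. Of the other 22626, 20380 name 1 gene, 691 several and 1555 were unlisted. Probe sets that name a second gene were left out, which affects Mrpl30, Mrps34 and Mrpl53. No 2 arrays held identical values (0 pairs).

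From these signals, 16 was added and log2 taken. The brighter 50% of probe sets by mean (11313) was tested with limma 3.58.1 in R 4.3.3, with 1 mean per group, a trend on mean signal, and Benjamini-Hochberg adjustment over all tested probe sets in each comparison, at a threshold of 0.05. Residual degrees of freedom were 6 and the prior 4.93. Tests were two-sided, and the fit was tested on simulated data. With 3 arrays a group, their number limits the precision. The p-values rest on the spread between arrays of a group. With 1 array for each mouse, differences between mice are not separated in it from those of cutting and amplification. Named genes were a fixed set of 16 members plus, per comparison, the 4 higher and 4 lower members with the smallest p, and in each related list the gene with the smallest p. Others are named where a count is spelled out. The members and lists were chosen with earlier results of these data known.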

Additional observations from a re-analysis of the deposited data

How the results depend on the processing

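No member passed the threshold in limma in any comparison under any of 25 other settings, with the smallest adjusted p among members running over 0.36 to 1, 0.415 to 1 and 0.218 to 1 in SMA against wild type, transplanted SMA against SMA and transplanted SMA against wild type. At an unadjusted p under 0.05, the count in SMA against wild type was 5, and it was 11 with array weights, 7 with median centring and 2 without SMA 2, wild type 1 or wild type 2. The median difference in SMA against wild type, -0.07, was negative in all 24 settings, and was -0.13 with median centring (all named genes -0.06), -0.12 with array weights, and -0.11 both without SMA 1 and SMA 2 and without SMA 3 and wild type 3. These last 2 settings were chosen after seeing the data, and the first leaves an SMA group of 1 array, whose spread is assumed to be that of the other groups. Leaving out each array in turn gave -0.12 to -0.07. In transplanted SMA against SMA the median, 0.06, ran from -0.0004 (without SMA 2) to 0.08 when each array was left out. In transplanted SMA against wild type the median, -0.06, was negative in all 24 settings, and was -0.14 with median centring, which brought the median of all named genes there to -0.09, and -0.029 with the average of each gene's probe sets. Leaving out each array gave -0.06 to -0.02, with -0.023 without wild type 1 and -0.027 without transplanted SMA 2. The cause of these moves was not tested. In the labels, same-numbered samples share only a number. Their deviations correlated at -0.083 to 0.453, the highest for wild type 3 and SMA 3, against -0.472 to 0.332 for samples of different number. Hybridisation controls averaged 282.1, 336.8 and 246.4 on wild type 3, SMA 3 and transplanted SMA 3, against 163 to 207.3 on the rest. A replicate block adjusts for a shared number and does not test whether such pairing exists. With it, limma gave 0 members past the threshold, 8 at an unadjusted p under 0.05 in SMA against wild type, and a median of -0.07.

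With 3 arrays a group, only differences well above the median standard error of 0.19 could pass the threshold, and for dim probe sets the added 16 makes differences smaller. The signal of each gene holds RNA from other cells in the cut tissue.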
